A study of Mus musculus with 30 samples.

Results

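The comparison described here set 3 calcaneus samples taken after 5 days of optogenetic stimulation against 3 naive calcaneus samples of day 0. These 6 were chosen by their titles from the 30 samples of the series, which covers the Achilles tendon and the calcaneus, or heel bone, in 10 groups of 3. All mice carried the genotype label Acta1,Ai32. Ai32 places the gene of a light-gated cation channel, a channelrhodopsin, at a locus where Cre turns it on, and Acta1 is the gene of skeletal muscle actin; the labels do not say more on how the channel was driven. The 3 stimulated samples have the treatment label 5-day stim, although their titles call them stimulated controls. Naive samples were taken at day 0, without the 5 days that the stimulated group went through, so stimulation and everything else that happened over those days cannot be told apart in this comparison. An unstimulated calcaneus group of day 5 and a stimulated group of day 12 are used below for values set beside it. Age and sex are not given in the labels, and nothing in them says that replicates came from separate animals, so a p-value here reflects sample-to-sample spread that could be technical.

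The calcaneus is a small bone with a thin cortical shell, a marrow cavity, articular cartilage on its joint faces and, at its rear end, the insertion of the Achilles tendon. Bone is built by osteoblasts and resorbed by osteoclasts, and osteocytes, which lie buried in the matrix, sense strain and signal to both. Muscle pull loads the heel bone through the tendon, and such loading is known to change the secretion of bone-forming and bone-restraining factors such as sclerostin, the product of Sost. RNA from a whole bone also comes from marrow, vessels, nerve, fat and attached tissue. In bulk RNA, fewer cells of a type and less RNA per cell cannot be told apart.

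Depth ran from 20.8 to 27.8 M counts over the 6 libraries. Bone genes were present in all of them: Bglap, which encodes osteocalcin, stood at 1781, 2479 and 2665 CPM in naive replicates 1, 2 and 3 and at 1461, 1715 and 1917 CPM in stimulated replicates 1, 2 and 3. CPM (counts per 1e+06 of the TMM-scaled library total) is the unit of level, and values are given in that order of replicates throughout, naive libraries first and stimulated ones after "against". Naive replicate 3 stood apart from the other bone libraries, at -103 on a first principal component that held 35.8% of the variance, where the other 13 lay between -37.8 and 42.7. It had the highest share of erythroid counts and the lowest share of muscle fibre counts of the 6. Unstimulated replicates 1 and 2 of day 5 were far more alike (biological coefficient of variation 2.64%) than the 14 other bone pairs (12.5% to 33.2%) and were counted as 1 sample, so that group has 2.

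After 5 days of stimulation 40 genes were higher and 3 were lower than in naive bone. Of 18851 genes tested, 43 passed (0.228%), which is 0.212% called higher and 0.0159% called lower. The test was edgeR's quasi-likelihood test with Benjamini-Hochberg adjustment at 0.05, and every adjusted p below is from it. Without adjustment 3069 genes had p under 0.05, 8.66% of those tested on the higher side and 7.62% on the lower. Adjusted p-values of the 43 ran from 0.00532 to 0.0403, and 238 more genes, 195 higher and 43 lower, lay between 0.05 and 0.1. In all 43 the 3 stimulated libraries lay on one side of the 3 naive ones; 11.3% of all tested genes lay wholly higher in this way and 11.3% wholly lower. Over all tested genes the median log2 fold change was -0.01, and 48.0% were above 0.

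**Figure D1:**
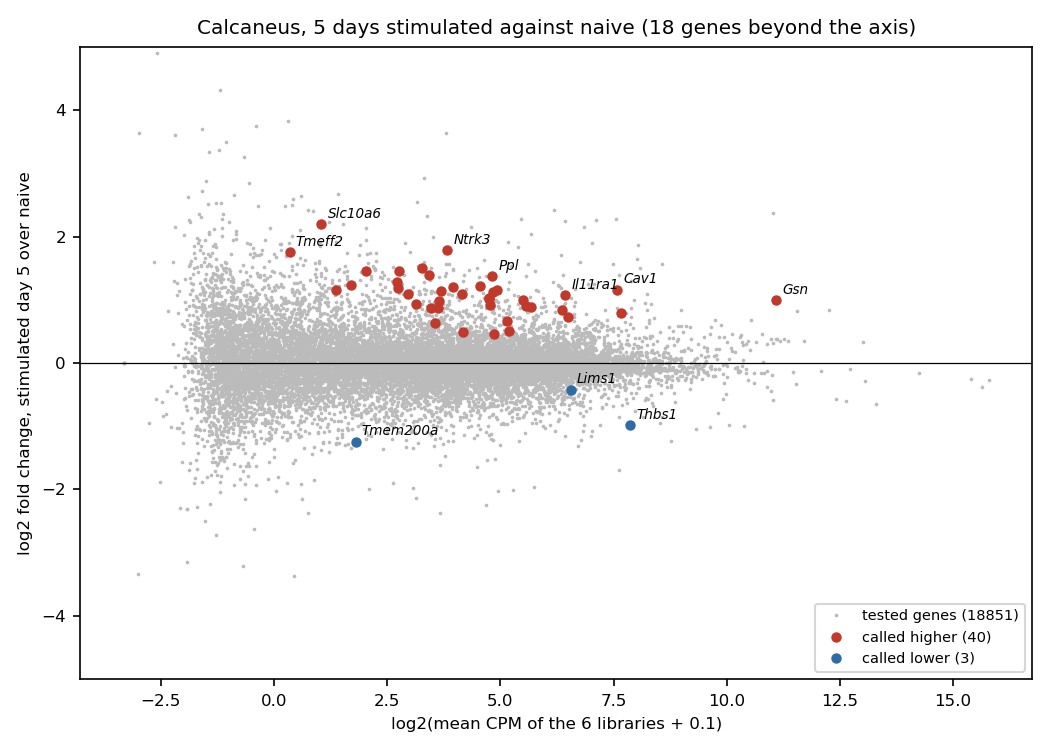
Each point is a gene tested in calcaneus, with log2 of its mean CPM over the 6 libraries (0.1 CPM added) on the horizontal axis and its log2 fold change, 5 days stimulated over naive, on the vertical axis. The 40 genes called higher (red) and 3 called lower (blue) lie inside the cloud of uncalled genes, 18 of which fall beyond the axis.

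The largest fold among called genes was that of Slc10a6, which encodes a sodium-dependent transporter of sulfated steroids (chr5:103605711-103629403, minus strand, GRCm38). It stood at 0.603, 0.515 and 1.0 CPM in naive and 3.27, 2.91 and 3.49 CPM in stimulated libraries. The lowest stimulated library was well above the highest naive one (log2 fold change 2.20 ± 0.35, adjusted p = 0.0311; the ± is the standard error). Values with ± that stand alone below are likewise log2 fold changes over naive. Serpina3c, which encodes a secreted inhibitor of serine proteases, stood at 18.4, 14 and 21.1 CPM against 37.6, 32.2 and 47.3 CPM (log2 fold change 1.13 ± 0.20, adjusted p = 0.0403). It belongs to a family of close copies, and 16.9% of its transcripts' 31-base words also occur in other genes, so its value is uncertain where reads could be shared. Slc1a3, which encodes a glial-type glutamate transporter also made by bone cells, stood at 18.5, 15.3 and 22.3 CPM against 38.6, 42.5 and 43.9 CPM (log2 fold change 1.16 ± 0.12, adjusted p = 0.00532). It was called in each of the 6 fits that left out 1 library, the only gene of the 43 for which this held.

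Promoter sequences were in the RefSeq table (GRCm38.p6) for 32 of the 43 called genes. The 250 bases before the transcription start of these 3 genes are printed because they are the largest fold, a second gene that shares a rare sequence motif with it, and the call that stood in every fit. Capitals mark matches to the 4 motifs searched on both strands: GNACA and TGTNC with 3 bases between them, the shape of a glucocorticoid response element, TGANTCA (AP-1), TTCNNNGAA (STAT) and TGTGGT (RUNX).
Slc10a6, chr5:103629404-103629653, minus strand: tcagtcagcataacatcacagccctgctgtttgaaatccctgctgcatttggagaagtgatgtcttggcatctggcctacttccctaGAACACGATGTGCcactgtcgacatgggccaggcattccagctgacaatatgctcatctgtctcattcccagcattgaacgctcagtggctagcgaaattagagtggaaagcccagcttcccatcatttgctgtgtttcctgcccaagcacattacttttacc
Serpina3c, chr12:104153873-104154122, minus strand: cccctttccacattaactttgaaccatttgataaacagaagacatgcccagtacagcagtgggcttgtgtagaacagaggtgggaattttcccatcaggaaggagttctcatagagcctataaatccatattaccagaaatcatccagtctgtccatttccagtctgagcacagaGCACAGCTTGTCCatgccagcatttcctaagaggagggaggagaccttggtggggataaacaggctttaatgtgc
Slc1a3, chr15:8710808-8711057, minus strand: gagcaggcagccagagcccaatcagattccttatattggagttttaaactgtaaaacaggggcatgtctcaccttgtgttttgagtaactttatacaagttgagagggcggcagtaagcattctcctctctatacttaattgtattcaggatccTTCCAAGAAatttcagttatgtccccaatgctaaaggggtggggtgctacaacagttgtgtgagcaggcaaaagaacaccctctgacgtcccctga
The glucocorticoid-element letters occur in 0.381% of 27025 promoters of this length and in 2 of the 32, Slc10a6, 163 bases before the start, and Serpina3c, 75 bases before it. The STAT letters, seen in Slc1a3 96 bases before the start, occur in 7.18% of all promoters and in 2 of the 32. AP-1 letters occur in 6.87% of all and in 2 of the 32, and RUNX letters in 14.2% of all and in 6 of the 32 (Vegfd, Gpnmb, Rasl12, Dlk1, Ntrk2 and Phyhd1). A match describes the sequence and does not show that a factor binds there. The motifs were picked with the called genes known, and no test was run on them.

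Receptors for growth factors, cytokines and small signalling molecules were among the higher genes; this grouping, and those that follow, were made by hand after the calls were known. Ntrk3, the receptor of neurotrophin-3, stood at 9.12, 3.79 and 5.82 CPM in naive and 21.7, 27.1 and 16.6 CPM in stimulated bone (log2 fold change 1.79 ± 0.29, adjusted p = 0.0311). Ntrk2, the receptor of brain-derived neurotrophic factor, stood at 20.5, 13.3 and 18.9 CPM against 34.8, 34.2 and 38.6 CPM (log2 fold change 1.03 ± 0.16, adjusted p = 0.0311). Both neurotrophin receptors were thus wholly separated between the groups. Cntfr, the ligand-binding chain for ciliary neurotrophic factor, stood at 4.58, 2.62 and 3.51 CPM against 13.2, 9.18 and 7.15 CPM (log2 fold change 1.46 ± 0.23, adjusted p = 0.0311). Il11ra1, the ligand-binding chain for interleukin-11, a cytokine that acts on osteoblasts and osteoclasts, stood at 62.8, 51 and 52.6 CPM against 115, 130.4 and 107 CPM (log2 fold change 1.08 ± 0.14, adjusted p = 0.0177). Adora1, the adenosine A1 receptor, stood at 7.2, 4.45 and 5.97 CPM against 18.9, 11.2 and 16.4 CPM (log2 fold change 1.39 ± 0.21, adjusted p = 0.0311). Ramp2 forms the adrenomedullin receptor together with a calcitonin-receptor-like protein and rose as well (0.99 ± 0.16, adjusted p = 0.0311). Its transcripts share 31.7% of their 31-base words with the overlapping gene Vps25. Adm, which encodes adrenomedullin itself, stood at 3.05, 2.11 and 3.51 CPM against 7.18, 7.96 and 6.84 CPM and missed the threshold (log2 fold change 1.34 ± 0.26, adjusted p = 0.057).

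Cntfr and Il11ra1 lie near each other on chromosome 4, in GRCm38 coordinates: Cntfr at chr4:41657498-41697089 and Il11ra1 at chr4:41699989-41769474. A further called gene, Gm13305 (chr4:42158842-42168603), is a near copy of Il11ra1: 57.7% of the 31-base words of Il11ra1 transcripts occur in Gm13305, and 66.2% of those of Gm13305 occur in Il11ra1. The deposited counts divide reads of such copies by an estimate, so the values of this pair are uncertain and may not be independent (log2 fold change 1.29 ± 0.20, adjusted p = 0.0311). On chromosome 12, Clmn (chr12:104763117-104865076), which encodes the membrane protein calmin, and the non-coding Gm28875 (chr12:104925501-104926689) also lie near each other, at 0.87 ± 0.14, adjusted p = 0.0311 and 0.49 ± 0.08, adjusted p = 0.0311.

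Genes of the cell surface and cytoskeleton rose as well. Ppl, which encodes periplakin, a linker of intermediate filaments to the cell border, stood at 19.4, 13.9 and 13.7 CPM in naive and 42.8, 35.8 and 42.9 CPM in stimulated bone (log2 fold change 1.37 ± 0.14, adjusted p = 0.00532). Cav1, which encodes the main coat protein of caveolae, the small membrane pits that flatten under membrane tension, stood at 149, 82.7 and 125 CPM against 293, 259 and 243 CPM (log2 fold change 1.16 ± 0.18, adjusted p = 0.0311). Ehd2, whose product sits at the neck of caveolae, stood at 174, 116 and 153 CPM against 273, 241 and 249.5 CPM (log2 fold change 0.79 ± 0.14, adjusted p = 0.0354). In both caveolar genes naive replicate 2 was the lowest library and no library crossed between the groups. Gsn, which encodes the actin-severing protein gelsolin, stood at 1789, 1215 and 1359 CPM against 2939, 2519 and 3263 CPM (log2 fold change 0.999 ± 0.15, adjusted p = 0.0308). Gpnmb encodes a membrane glycoprotein of osteoblasts, osteoclasts and macrophages, also called osteoactivin, and stood at 14.2, 15.9 and 11.6 CPM against 34.2, 31.7 and 31.8 CPM (log2 fold change 1.22 ± 0.16, adjusted p = 0.0185). Its 3 stimulated values were close together and all more than the highest naive value.

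Secreted and matrix products formed a further set. Vegfd, a growth factor for lymphatic vessels, stood at 2.02, 1.78 and 2.56 CPM against 4.81, 7.15 and 5.52 CPM (log2 fold change 1.46 ± 0.24, adjusted p = 0.0311). Penk, the precursor of the enkephalin peptides, stood at 8.55, 6.37 and 9.94 CPM against 14.8, 17.4 and 16.9 CPM (log2 fold change 0.98 ± 0.16, adjusted p = 0.0311). Col4a5, a collagen chain of basement membranes, rose (1.15 ± 0.17, adjusted p = 0.0308), as did Spock2, which encodes the proteoglycan testican-2 (1.01 ± 0.13, adjusted p = 0.0177), and Podn, which encodes the small leucine-rich proteoglycan podocan (0.90 ± 0.15, adjusted p = 0.0311). Thbd, which encodes thrombomodulin, the anticoagulant thrombin receptor of endothelium, rose by less (0.72 ± 0.12, adjusted p = 0.0311). Ccdc3, which encodes a secreted protein of fat and endothelium, also rose (0.83 ± 0.14, adjusted p = 0.0311), though 67.1% of its transcripts' 31-base words lie antisense to Gm26776 and the counting is not stated to use strand. Antisense partners also cover part of Adora1 (18.5% of its words), Tmem200a (11.4%), Penk (10.9%) and Ildr2 (10.2%). Galnt15, an enzyme that starts O-linked sugar chains, was at 0.89 ± 0.16, adjusted p = 0.0403.

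Regulators of differentiation and signalling inside the cell were also among the higher genes. Dlk1, a Notch-like membrane protein that holds back fat cell differentiation, stood at 4.22, 3.75 and 4.07 CPM against 8.8, 10.3 and 8.24 CPM (log2 fold change 1.18 ± 0.19, adjusted p = 0.0311). The transcription factor gene Ebf2, known from fat and bone precursors, was at 0.94 ± 0.16, adjusted p = 0.0325. The phospholipase C genes Plce1 and Plcd3 were at 1.10 ± 0.16, adjusted p = 0.0308 and at 0.87 ± 0.14, adjusted p = 0.0311. Deptor, an inhibitor of mTOR, was at 0.50 ± 0.08, adjusted p = 0.0311 and Dapk1, a death-associated kinase, at 0.66 ± 0.10, adjusted p = 0.0308. Sult1a1, a sulfotransferase, was at 0.91 ± 0.14, adjusted p = 0.0311. Other higher genes were Tmeff2, Ildr2, Sprn, Rasl12, AI838599, Raver2 and Phyhd1, with log2 fold changes from 0.64 (Phyhd1) to 1.75 (Tmeff2); Phyhd1 shares 41.5% of its 31-base words with an overlapping predicted gene.

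**Figure D2:**
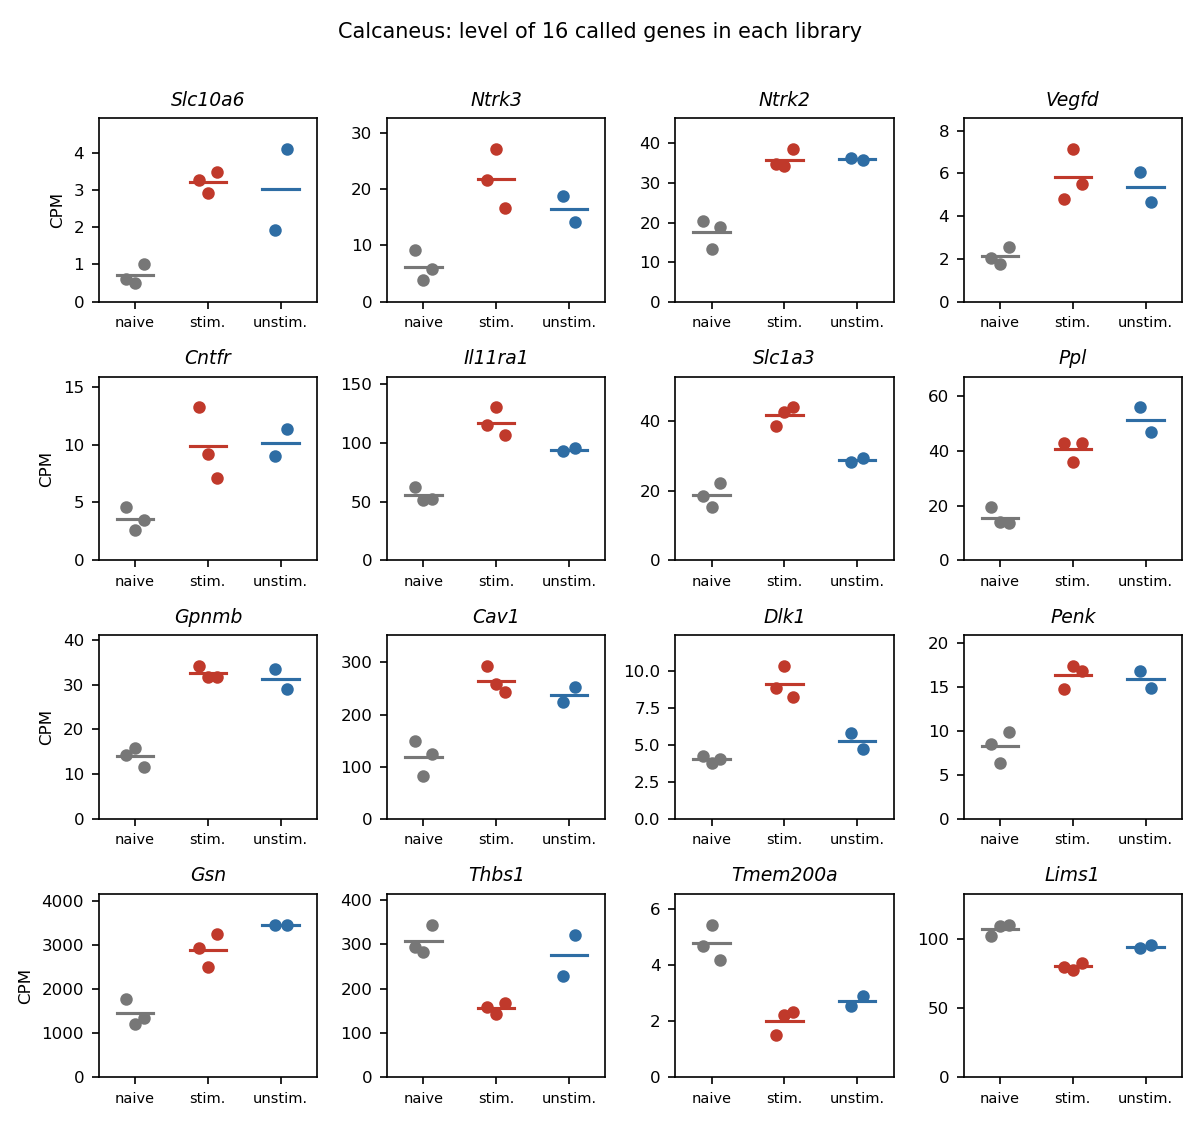
Level in CPM, on a linear axis from 0, of 16 called genes in each calcaneus library: naive (grey), stimulated for 5 days (red) and unstimulated at day 5 (blue, 2 samples after the similar pair was summed); bars are group means. Slc1a3 reads 18.5, 15.3 and 22.3 in naive and 38.6, 42.5 and 43.9 in stimulated libraries, and in all 16 panels the grey and red points do not overlap.

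Only 3 genes were called lower. Thbs1 encodes thrombospondin-1, a matrix glycoprotein that can activate latent TGF-beta, and lies at chr2:118111876-118127133. It stood at 294, 283 and 345 CPM in naive and 158, 142 and 167 CPM in stimulated bone (log2 fold change -0.98 ± 0.16, adjusted p = 0.0311). Tmem200a, which encodes a membrane protein, stood at 4.68, 5.43 and 4.17 CPM against 1.5, 2.22 and 2.31 CPM (log2 fold change -1.25 ± 0.20, adjusted p = 0.0311). Lims1, which encodes PINCH-1, an adaptor of integrin adhesions, stood at 102, 109 and 110.4 CPM against 79.7, 77.9 and 83 CPM (log2 fold change -0.42 ± 0.07, adjusted p = 0.0395). The change of Lims1 was the smallest of the 43, and its 3 values in each group were tightly grouped.

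The number of called genes changed when any 1 of the 6 libraries was left out. It rose to 82 without naive replicate 1, where 38 of the 43 stayed called. It fell to 1 without naive replicate 2 and to 2 without naive replicate 3. Without stimulated replicates 1, 2 and 3 it was 2, 10 and 3. All 43 kept their sign in all 6 of these fits. Slc1a3 was called in all 6 (1.03 to 1.33 on the log2 scale), Ppl in 5 (not without naive replicate 2, adjusted p = 0.0578) and Il11ra1 in 3. With a score of muscle fibre genes as a covariate 23 genes were called, 18 of them among the 43; with a marrow score built from erythroid and neutrophil genes only Ppl, Slc1a3 and Il11ra1 passed.

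Among the genes that define bone-forming cells, none passed the test in either direction, where 0.228% of all genes did. In a list this short the absence of a call says little. Of 26 osteoblast genes tested, 20 were below 0, with a median log2 fold change of -0.21, and in 9 all 3 stimulated libraries lay below all 3 naive ones, where 11.3% of all genes did. The type I collagen genes Col1a1 (-0.25 ± 0.13, adjusted p = 0.389) and Col1a2 (-0.38 ± 0.13, adjusted p = 0.19) had values below 0 with no overlap between groups. Sp7, which encodes the master factor osterix, stood at 206, 222 and 224 CPM against 222, 203 and 217 CPM (log2 fold change -0.02 ± 0.11, adjusted p = 0.959), and its groups overlapped. Ibsp, bone sialoprotein, was at 0.24 ± 0.19, adjusted p = 0.578. Together osteoblast genes took 12.9, 13.9 and 13.4% of counts in naive and 11.4, 11.7 and 11.1% in stimulated libraries, so every stimulated share was below every naive one. An exact 2-sided permutation test of such a share, 3 against 3, cannot go below p = 0.1, and that was its value here (0.274 adjusted over the 52 lists). Much of the osteoblast share was type I collagen, so it need not describe the other members. Mean levels in naive and stimulated bone were 46686 and 39269 CPM for Col1a1, and 57698 and 44226 CPM for Col1a2.

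Osteocyte genes had a median of -0.26 over 20 genes, with 2 wholly higher and 6 wholly lower, where 11.3% of all genes were in each direction. Sost stood at 25.3, 23.6 and 29.9 CPM in naive and 19.5, 8.57 and 19 CPM in stimulated bone (log2 fold change -0.74 ± 0.35, adjusted p = 0.325). All 3 stimulated values were lower, but the stimulated replicates spread widely, with replicate 2 at less than any other library. Dmp1, a matrix protein of osteocytes, was at -0.55 ± 0.22, adjusted p = 0.263, with overlapping groups. Kcnk2, a stretch-activated potassium channel, stood at 35.8, 39 and 42.9 CPM against 27.5, 27.9 and 25.3 CPM and came closest to the threshold (log2 fold change -0.54 ± 0.12, adjusted p = 0.0751). Pdpn, an early osteocyte marker that lymphatic vessels and synovial cells also make, had a value above 0 (0.99 ± 0.34, adjusted p = 0.199). The osteoclast list had a median of -0.12 over 20 genes, which was 0.0041 without naive replicate 3. Its genes Ctsk (0.02 ± 0.23, adjusted p = 0.984) and Acp5 (-0.16 ± 0.22, adjusted p = 0.787), the main proteinase and phosphatase of resorption, were near 0 and changed sign when 1 library was left out. Of the signals to osteoclasts, Csf1 stood at 87.9, 78.1 and 99 CPM against 125, 126 and 127 CPM (log2 fold change 0.51 ± 0.10, adjusted p = 0.0606).

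The cartilage and joint lining lists had medians of opposite sign. The cartilage list of 26 genes had a median of -0.34, which ranged over -0.59 to -0.10 when 1 library was left out. Ihh, the signal of prehypertrophic chondrocytes, stood at 19.3, 19.7 and 17 CPM in naive and 5.33, 10.7 and 7.06 CPM in stimulated bone, a clear separation that missed the threshold (log2 fold change -1.28 ± 0.24, adjusted p = 0.0561) and passed it without stimulated replicate 2. Col11a1, a cartilage and bone collagen, was at -0.58 ± 0.14, adjusted p = 0.0992, and Col2a1, the main cartilage collagen, at -0.34 ± 0.33, adjusted p = 0.675 with overlapping groups. Of 12 synovium and joint lining genes, 8 had all stimulated libraries above all naive ones, where 11.3% of all genes did, and the median was 0.62. None passed the test, where 0.228% of all genes did. Prg4, which encodes lubricin, the lubricant of joint surfaces and tendon sheaths, stood at 692, 516 and 811 CPM against 3344, 5019 and 2070.0 CPM (log2 fold change 2.37 ± 0.55, adjusted p = 0.099). Htra4, a secreted protease, stood at 105, 88.8 and 144 CPM against 343, 585 and 308 CPM (log2 fold change 1.87 ± 0.51, adjusted p = 0.137). Joint lining genes took 0.13, 0.107 and 0.144% of naive and 0.438, 0.663 and 0.295% of stimulated counts, and 0.443, 0.477 and 0.23% in the unstimulated libraries of day 5. Tendon fibroblast genes took 1.3, 1.14 and 1.29% of naive and 1.92, 2.06 and 1.74% of stimulated counts, with Prg4 on both lists. Much of the joint lining share was Prg4 alone, which averaged 673 CPM in naive and 3478 CPM in stimulated bone. It also added to the tendon fibroblast share, while the median of that list was 0.07, with 13 genes above 0 and 8 below. The tenocyte gene Tnmd stood at 52.6, 32.4 and 25.8 CPM against 34.2, 26.6 and 48.4 CPM (log2 fold change -0.02 ± 0.41, adjusted p = 0.988). How much joint or tendon tissue each bone sample held, and its part in these values, was not tested.

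Vessel and fat genes lay mostly above 0. Of 24 endothelial genes 22 were above 0 and 13 were wholly higher, with a median of 0.39 (0.29 to 0.47 with 1 library left out) and no call. Over all tested genes 11.3% were wholly higher and 0.228% were called, the shares to set beside such counts in this paragraph. Pecam1 stood at 141, 113 and 142 CPM against 218, 197 and 176 CPM (log2 fold change 0.58 ± 0.15, adjusted p = 0.112), and Cldn5, of endothelial tight junctions, was at 0.54 ± 0.15, adjusted p = 0.123. Pericyte and smooth muscle genes had a median of 0.49, with 9 of 16 wholly higher, and 0.18 with the marrow score as a covariate. Acta2, smooth muscle actin, stood at 102, 40.6 and 48.6 CPM against 548, 258 and 126 CPM (log2 fold change 2.29 ± 0.64, adjusted p = 0.146), a spread in which stimulated replicate 1 was the highest library. Of 22 adipocyte genes 21 were above 0 (median 0.47) and 5 were wholly higher, among them the lipid-droplet gene Plin4, at 279, 158 and 224 CPM against 449, 313 and 504 CPM (log2 fold change 0.94 ± 0.20, adjusted p = 0.0763). Adipocyte genes took 0.593, 0.384 and 0.59% of naive and 0.758, 0.616 and 0.855% of stimulated counts.

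Lists of the mature marrow lineages had medians below 0, again with no call, where 0.228% of all genes were called. All 26 neutrophil and granulocyte genes were below 0 (median -0.97), 10 of them wholly lower. That median was -0.57 without naive replicate 2, and the list's share of counts overlapped between groups, at 0.736, 1.37 and 0.847% in naive and 0.487, 0.477 and 0.77% in stimulated libraries. Retnlg, a neutrophil resistin-like gene, stood at 115, 183 and 152 CPM against 45.6, 47.8 and 89.1 CPM (log2 fold change -1.31 ± 0.34, adjusted p = 0.122). Of 18 megakaryocyte and platelet genes 15 were wholly lower, against 11.3% of all genes, with a median of -0.93 (-1.01 to -0.81 with 1 library left out, -0.55 with the marrow score as a covariate). Gp5, a platelet glycoprotein, stood at 36.9, 35.4 and 42.7 CPM against 14.8, 15.3 and 19.8 CPM (log2 fold change -1.21 ± 0.33, adjusted p = 0.135). The share of megakaryocyte genes was 0.129, 0.131 and 0.146% in naive and 0.0888, 0.095 and 0.099% in stimulated libraries. B lymphoid genes had a median of -0.52 (-0.30 without naive replicate 3 and -0.80 without stimulated replicate 3), with immunoglobulin Ighm at 491, 631 and 700.3 CPM against 239, 232 and 302 CPM (log2 fold change -1.24 ± 0.40, adjusted p = 0.183). The erythroid median rested on 1 library: the value of -0.41 became 0.02 without naive replicate 3, where erythroid genes took 5.27% of counts against 1.92% and 2.03% in the other naive libraries. Of 25 monocyte and macrophage genes 11 were above 0 and 14 below, 6 wholly higher and 3 wholly lower (11.3% of all genes in each direction), and the median of -0.08 was 0.03 without naive replicate 3. Among the members of smallest p, Cd163 (0.88 ± 0.18, adjusted p = 0.0627), Folr2 (1.42 ± 0.30, adjusted p = 0.0768) and Lyve1 (1.63 ± 0.35, adjusted p = 0.0904), which resident tissue macrophages make, were above 0 without overlap, and the monocyte gene Ly6c2 was at -1.07 ± 0.31, adjusted p = 0.154.

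**Figure D3:**
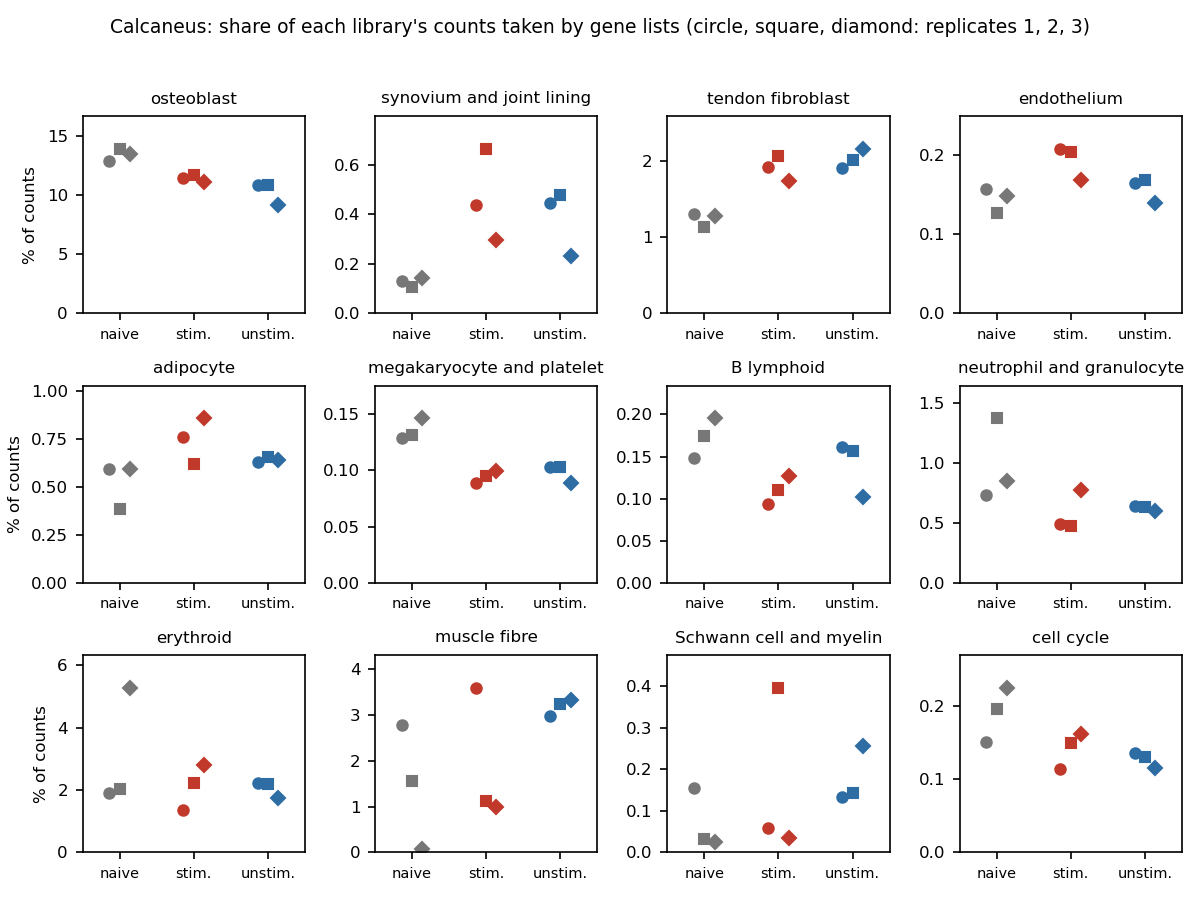
Share of each library's counts, in percent on linear axes from 0, taken by 12 gene lists in naive, stimulated and unstimulated day-5 calcaneus; the marker shape gives the replicate number and unstimulated replicates 1 and 2 are drawn separately. Joint lining shares are 0.13, 0.107 and 0.144% in naive and 0.438, 0.663 and 0.295% in stimulated libraries, without overlap, while erythroid, muscle fibre and Schwann cell shares overlap between the groups. Much of the joint lining share is Prg4 alone.

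Cell cycle genes were below 0 in all 36 tested (median -0.49), with 6 of 36 wholly lower, where 11.3% of all genes were. None was called, where 0.228% of all genes were. The replication gene Mcm4 was at -0.47 ± 0.15, adjusted p = 0.168. The list's median was -0.32 without naive replicate 3 and -0.02 with the marrow score as a covariate. Interferon-stimulated genes had a median of -0.48, with 18 of 32 wholly lower, for example the RNA sensor gene Ifih1 at 17.9, 17.8 and 18.7 CPM against 12.9, 14.5 and 14.2 CPM (log2 fold change -0.39 ± 0.10, adjusted p = 0.0995); that median was -0.29 without naive replicate 3. Of 19 glucocorticoid-responsive genes 16 were above 0, the median was 0.45, and Sult1a1 was called, where 0.228% of all genes were. In unstimulated bone of day 5 the median of this list over the same naive libraries was 0.82. Stimulated against unstimulated, it was -0.25. Mt2, a metallothionein gene also induced by metals and oxidative stress, stood at 24.1, 18.4 and 25.9 CPM in naive and 187, 73.4 and 105 CPM in stimulated bone (log2 fold change 2.42 ± 0.57, adjusted p = 0.104). Errfi1, a feedback inhibitor of the EGF receptor, was at 1.02 ± 0.25, adjusted p = 0.11.

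The Wnt list and the BMP and TGF-beta list had medians close to 0. The Wnt pathway, which drives bone formation, had a median of -0.0020 over 41 genes, 20 above 0 and 21 below. Its members Dkk2 (1.09 ± 0.26, adjusted p = 0.0992) and Sfrp1 (1.03 ± 0.34, adjusted p = 0.188), both secreted regulators of the pathway, had values above 0. BMP and TGF-beta genes had a median of 0.06 over 44 genes, led by the co-receptor gene Tgfbr3 (0.42 ± 0.09, adjusted p = 0.0783). The IGF axis had a median of 0.27, and Igfbp5, a binding protein abundant in bone matrix, stood at 781, 679 and 765 CPM against 1265, 1185 and 929 CPM (log2 fold change 0.60 ± 0.14, adjusted p = 0.0966). Immediate early genes, which respond within minutes to strain, had a median of -0.02 (0.08 without naive replicate 3), and Fos stood at 22.9, 29.6 and 62.2 CPM against 20.3, 28.3 and 14.9 CPM (log2 fold change -0.85 ± 0.47, adjusted p = 0.4). Targets of YAP and SRF, the transcriptional readers of cell tension, had a median of 0.23 with Thbs1 called lower; that median was 0.02 without stimulated replicate 1 and 0.40 without naive replicate 1. The 13 genes of the mitochondrial genome were all above 0 (median 0.33) and 7 were wholly higher, where 11.3% of all genes were. That median was 0.19 without stimulated replicate 1, and the genes' share of counts overlapped between groups (up to 2.32% in naive and from 2.28% in stimulated libraries). Elastic fibre genes included Efemp1, which encodes fibulin-3, at 13.6, 7.96 and 10.4 CPM against 19.8, 23.9 and 22.5 CPM, just outside the threshold (log2 fold change 1.04 ± 0.19, adjusted p = 0.0512).

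Shares of muscle and nerve genes varied widely between libraries of the same group. Muscle fibre genes took 2.77, 1.57 and 0.0772% of naive and 3.59, 1.11 and 0.993% of stimulated counts, and their median of 0.32 ranged over -0.45 to 1.16 with 1 library left out. Acta1 stood at 4209, 2157 and 31.5 CPM against 5027, 1667 and 1635 CPM (log2 fold change 0.38 ± 1.10, adjusted p = 0.917), lowest in naive replicate 3. Schwann cell genes took 0.156, 0.0321 and 0.0244% and 0.0595, 0.396 and 0.0337%, and their median of 0.97 ranged over -0.66 to 2.10, below 0 without stimulated replicate 2. Of the called neurotrophin receptors, Ntrk3 was highest in stimulated replicate 2 and, among naive libraries, in replicate 1, the libraries with the highest Schwann cell share of each group, and the part of that share in its value was not tested. Ntrk2 was also highest among naive libraries in replicate 1, and among stimulated ones in replicate 3, where the share was 0.0337%.

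**Figure D4:**
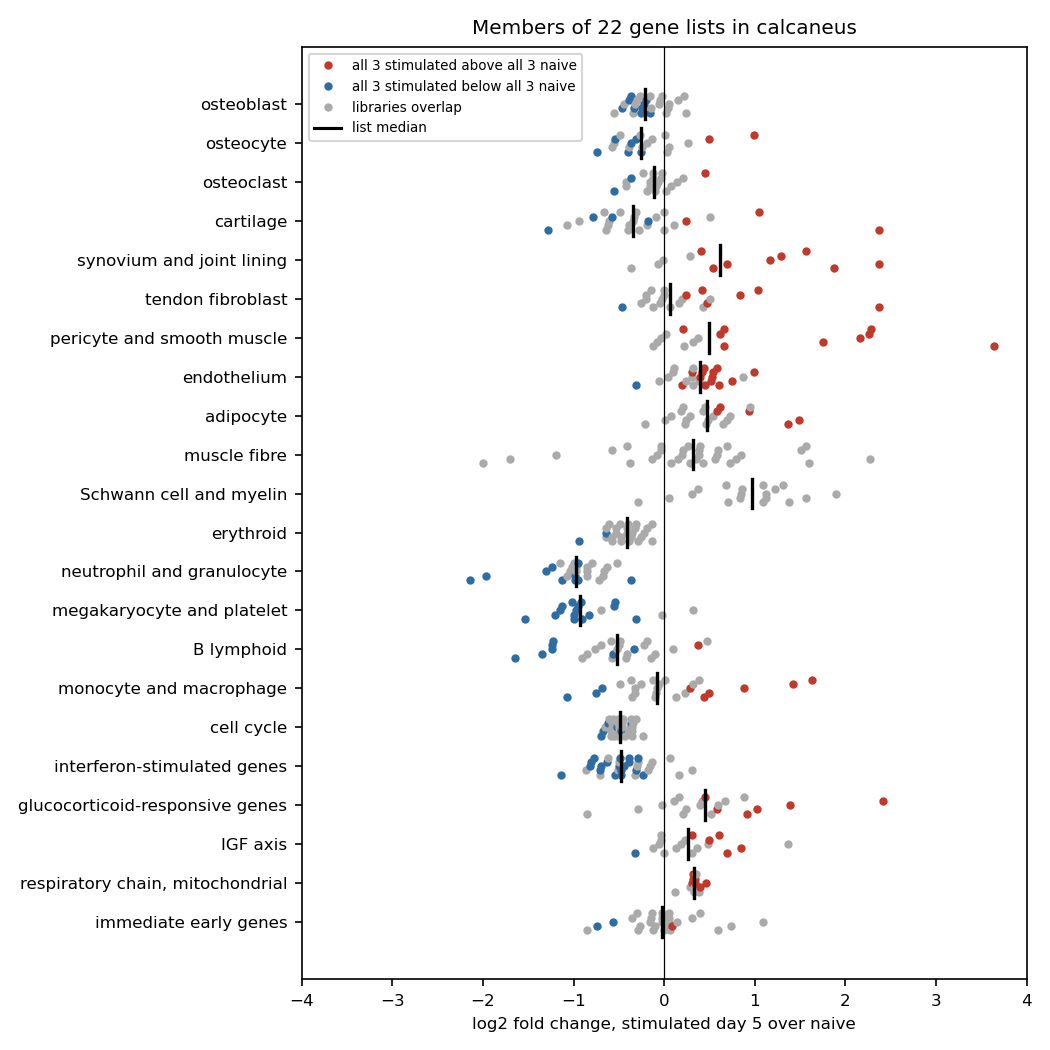
Log2 fold change, 5 days stimulated over naive, of each tested member of 22 gene lists; red and blue points are genes whose 3 stimulated libraries lie wholly above or below the 3 naive ones, grey points overlap, and black bars are list medians. Megakaryocyte (-0.93) and neutrophil (-0.97) medians lie farthest below 0; joint lining (0.62) and Schwann cell (0.97) medians lie farthest above it, the latter with no member free of overlap.

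Values of the called genes in other bone groups were set beside these. Unstimulated bone of day 5 was compared with the same 3 naive libraries, and there 82 genes were called (0.435%), 72 higher (0.382%) and 10 lower (0.053%); 25 of the 43 were among them. Since both comparisons share the naive libraries, this count is no independent support. Ppl stood at 55.9 and 46.8 CPM in the 2 unstimulated samples (1.71 ± 0.16 over naive), above the stimulated values. Slc1a3 stood at 28.1 and 29.4 CPM there (0.62 ± 0.13), between naive and stimulated libraries. Dlk1 stood at 5.81 and 4.69 CPM (0.39 ± 0.20), nearer to naive than to stimulated libraries. Thbs1 stood at 229.8 and 321 CPM (-0.16 ± 0.17), with 1 value inside the naive range and 1 between the groups. Tested directly, stimulated against unstimulated bone at day 5 gave 0 calls of 18851 (0%) with edgeR, 1522 genes at an unadjusted p under 0.05, and 49 calls with DESeq2. Among the 43 the direct differences had a median of 0.06 on the log2 scale. They ran from -0.82 (Thbs1) to 0.79 (Dlk1), so these examples are the extremes, with no adjusted p below 0.441. With 2 samples on one side, this does not show that the groups were alike.

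**Figure D5:**
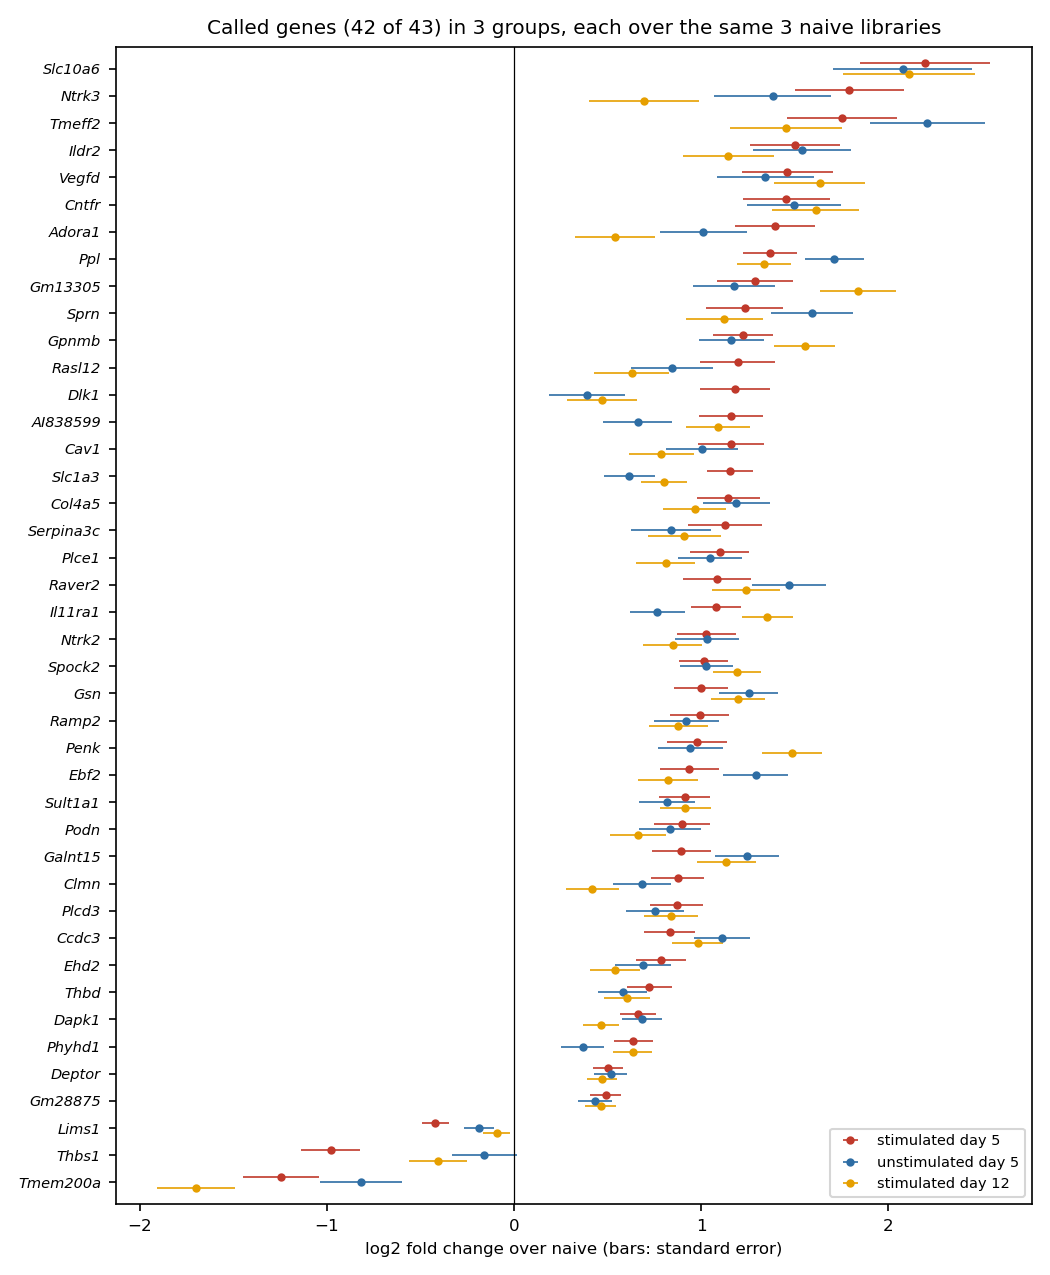
Log2 fold change over the same 3 naive libraries, with its standard error, of 42 of the 43 called genes in stimulated bone of day 5 (red), unstimulated bone of day 5 (blue) and stimulated bone of day 12 (orange). The 39 higher genes drawn lie above 0 in all 3 groups, which share their naive libraries. Dlk1 is at 1.18, 0.39 and 0.47, and Thbs1 at -0.98, -0.16 and -0.41. Of the 43, these genes had the most positive and most negative difference between stimulated and unstimulated bone of day 5.

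Stimulated bone of day 12 against that of day 5 also gave 0 calls (0%) with edgeR, 1987 genes at an unadjusted p under 0.05 and 126 calls with DESeq2. Among the 43 the differences, day 12 over day 5, ran from -1.10 to 0.57 on the log2 scale, with no adjusted p below 0.223. Ntrk3 was at 0.70 over naive at day 12 against 1.79 at day 5, and Penk at 1.49 against 0.98. In tendon the same contrast, 5 days stimulated over naive, was fitted together with bone over 29 libraries. The difference between tissues passed for 15 of 19845 genes (0.0756%), and of the 43 only for Tmeff2, which encodes a membrane protein with follistatin-like and EGF-like domains. Tmeff2 was at 1.71 in bone and -0.92 in tendon (difference 2.63 ± 0.40, adjusted p = 0.0179). In bone alone it stood at 0.745, 0.421 and 0.402 CPM in naive and 2.13, 1.41 and 1.9 CPM in stimulated libraries (log2 fold change 1.75 ± 0.30, adjusted p = 0.0311). The unstimulated bone samples of day 5 stood at 2.54 and 2.44 CPM. Thbs1 was at -2.35 in tendon and Slc10a6 at 1.89, with no called difference from bone (adjusted p = 0.213 and 0.896).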

How the data were processed

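Poly-A RNA libraries were made from RNA extracted with a PureLink kit, per the labels' protocols. Per the submitters' processing notes, cutadapt 2.3, FastQC 0.11.8, STAR 2.7.8a, RSEM 1.3.3, MultiQC 1.7 and the build GRCm38 were used; no source used here gives their order, the annotation release or the strand setting. The values deposited by the authors were RSEM's expected counts for each gene, already whole (0 of them not whole), so rounding changed none. Of 55426 gene identifiers, 99.5% matched GENCODE M21 by ID.

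The main test was edgeR 4.0.16 under R 4.3.3 (scaling by TMM, filterByExpr with minimum count 10 and total 15, robust quasi-likelihood fit over 14 bone libraries, threshold 0.05). It was also run on counts simulated with the fit's own spread. Such counts cannot show how the test behaves with an outlying library such as naive replicate 3. Standard errors are the fold change over the square root of F. The difference between tissues was fitted over 29 libraries. Alternatives were DESeq2 1.42.0, its size factors, limma-voom (limma 3.58.1), no filter, only the compared libraries, the similar pair kept separate, the replicate number as a block, muscle and marrow scores as covariates (log2 CPM, prior count 2) and each library left out. The 5 comparisons were this contrast, unstimulated against naive, stimulated against unstimulated, day 12 against day 5, and bone against tendon.

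The comparison, its alternatives and the 52 gene lists, written from textbook markers, were chosen with earlier results of these data known. Named genes were the 15 largest and 5 smallest-p calls in each direction (no overlap, at least 1 CPM, no predicted genes), up to 4 members per list by p, and set marker genes. The other called genes were named after their values were seen. A few genes are not reported here. Lists are described by counts and medians, without a set test.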

Additional observations from a re-analysis of the deposited data

Results flagged for a closer look

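Tmeff2 differed between tissues. Over naive, it was 1.71 in stimulated bone and -0.92 in stimulated tendon of day 5 on the log2 scale, and the difference of 2.63 ± 0.40 passed edgeR's interaction test (adjusted p = 0.0179). Its level in bone was low, at most 2.13 CPM in the stimulated libraries. In unstimulated bone of day 5 Tmeff2 stood at 2.54 and 2.44 CPM, which is 2.21 ± 0.31 over naive on the log2 scale. The interaction test gave from 0 to 107 calls over all genes when 1 library was left out.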

How the results depend on the processing

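The count of 43 was 688 with DESeq2, 808 with limma-voom, 159 with the similar pair kept separate, 23 with the muscle score and 3 with the marrow score as a covariate; all 43 stayed called under the first 3. DESeq2's size factors gave 61 calls, no filter 58 and only the 6 compared libraries 52, which kept 43, 40 and 12 of the 43. Leaving out 1 library gave 1 to 82. The labels do not say whether replicate numbers pair samples. Deviations of naive and stimulated samples from their group means had correlations of 0.441, -0.244 and 0.305 for the same number. Different numbers gave -0.464 to 0.206. With 3 samples per group these values cannot settle whether the samples were paired. With the number as a replicate block and the pair kept separate, 90 genes were called, the 43 among them; under the same block unstimulated against naive gave 159 calls and the tissue difference 51.

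Unstimulated against naive, at 82 calls, gave 529 with DESeq2, 552 with limma-voom, 257 with the pair kept separate, 0 with only the libraries compared (2677 at an unadjusted p under 0.05), 36 without the summed pair of replicates 1 and 2, and 1 to 245 with 1 library left out. Stimulated against unstimulated, at 0 calls, gave 49 with DESeq2, 1 without a filter, 3 with the pair kept separate, 4 with limma-voom and 0 to 14 with 1 library left out. Day 12 against day 5, at 0 calls, gave 126 with DESeq2, 1 with the pair kept separate and 0 to 0 with 1 library left out. The tissue difference, at 15 calls, gave 554 with DESeq2 and 0 to 107 with 1 library left out. The causes of these differences were not tested.

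Among 122 named genes that were not called, 6 changed sign in 19 fits. Sp7 was at 0.0013 with the pair kept separate, 0.0059 with the muscle score and -0.058 to 0.031 with 1 library left out. Acp5 was at 0.042 with the muscle score and -0.27 to 0.10 with 1 left out. Ctsk was at -0.047 with the marrow score and -0.074 to 0.21 with 1 left out. Hbb-bs was at 0.33 and Acta1 at -0.16 with the marrow score, and -0.96 to 0.10 and -0.37 to 1.34 with 1 left out. Tnmd was at 0.048 with limma-voom and -0.28 to 0.32 with 1 left out. Depth limits genes near 1 CPM most, Tmeff2 and Slc10a6 among the called genes.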
